A study of Mus musculus with 153 samples.

Results

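Pigment in mouse skin is made by melanocytes, neural crest cells that load melanin into organelles called melanosomes. The genes described here are 9 that mark this cell type: the melanin enzymes Tyr, Tyrp1 and Dct, the melanosome proteins Mlana, Slc45a2 and Oca2, the surface receptor Mc1r, and the transcription factors Mitf and Sox10. They were chosen by name, as known melanocyte genes, from 18810 genes with a usable probe set, and all 9 were measured. For each gene the probe set with the highest mean among those annotated with that symbol alone was used.

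The samples were tail skin of untreated mice aged 8 weeks, with 1 Affymetrix array per mouse. In the breeding scheme, FVB/N females without functional Hras were crossed with Mus spretus males, and the F1 daughters were then mated with FVB/N males that had lost either both copies of Hras or a single copy. Mice labelled HET (Hras +/-, 19 males and 18 females) were set against mice labelled WT (Hras +/+, 62 males and 52 females), after 2 arrays that the labels mark as outliers, both from WT males on plate 2, were left out. The remaining mice were 81 males and 70 females, and their arrays were run on plate 1 (49 mice), plate 2 (46) and plate 3 (56), each holding both genotypes and both sexes. Because the FVB/N line carried no intact Hras into the F1 mothers, the intact copy that such a mother passes on is the spretus one. A WT mouse therefore has a spretus Hras from its mother, while a HET mouse can have its single intact copy from either parent. Hras and Tyr both lie on chromosome 7 in the RefSeq gene table, with 670 measured genes between them, so the genotype label and the parental origin of chromosome 7 are tied together by the cross and cannot be told apart here. The labels do not give litters, so related mice may be counted as separate samples.

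Tyrosinase, the product of Tyr, catalyses the rate-limiting step of melanin synthesis, and Tyrp1 and Dct act on later intermediates of the same pathway. Mlana is a melanosome membrane protein, Slc45a2 and Oca2 are melanosome transport proteins that affect the activity of tyrosinase, and Mc1r is the receptor through which melanocortins switch melanocytes to dark pigment. Mitf is the transcription factor that binds the promoters of many pigment genes, and Sox10 is a neural crest factor that acts upstream of Mitf and is also expressed in Schwann cells. FVB/N mice are albino because they carry a mutated Tyr, and M. spretus is pigmented, so each backcross mouse received an FVB/N copy of Tyr from its father and either kind from its mother. The Tyr allele and coat colour of each mouse were not analysed here.

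The promoters of the enzymes show one feature that Mitf is known to recognise, the M-box, whose core is TCATGTG. The windows of Tyr, Tyrp1 and Dct are shown because these genes carry it and varied together between mice, and that of Slc24a5, an ion exchanger of melanosomes, because it was the gene most like Tyr. Each window is the 250 bases before the annotated start, from RefSeq on build GRCm38.p6 and read 5′ to 3′ on the gene's strand, with the motif in capitals (CACATGA where it lies on the opposite strand).
Tyr, chr7:87493513-87493762, minus strand: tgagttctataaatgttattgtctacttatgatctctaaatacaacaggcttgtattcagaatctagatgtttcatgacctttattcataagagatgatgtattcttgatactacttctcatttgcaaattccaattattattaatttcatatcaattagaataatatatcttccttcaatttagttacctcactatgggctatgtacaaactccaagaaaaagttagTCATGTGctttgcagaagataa
Tyrp1, chr4:80833963-80834212, plus strand: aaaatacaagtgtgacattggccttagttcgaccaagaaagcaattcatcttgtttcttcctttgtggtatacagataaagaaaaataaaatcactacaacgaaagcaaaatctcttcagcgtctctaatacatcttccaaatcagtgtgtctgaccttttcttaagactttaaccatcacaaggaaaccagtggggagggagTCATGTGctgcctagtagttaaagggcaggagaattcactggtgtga
Dct, chr14:118052247-118052496, minus strand: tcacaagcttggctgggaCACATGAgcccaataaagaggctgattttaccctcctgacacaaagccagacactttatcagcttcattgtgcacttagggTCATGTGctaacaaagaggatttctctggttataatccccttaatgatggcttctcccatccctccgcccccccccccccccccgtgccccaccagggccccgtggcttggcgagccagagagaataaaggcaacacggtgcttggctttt
Slc24a5, chr2:125067877-125068126, plus strand: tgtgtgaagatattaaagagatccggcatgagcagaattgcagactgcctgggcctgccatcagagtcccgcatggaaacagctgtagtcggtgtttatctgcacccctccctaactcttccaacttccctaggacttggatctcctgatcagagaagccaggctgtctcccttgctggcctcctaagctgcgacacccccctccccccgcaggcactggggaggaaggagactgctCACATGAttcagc

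The motif began 22 bases before the start of Tyr, 47 before that of Tyrp1, and the window of Dct held 2 copies, the outer on the opposite strand at 232 bases before the start. In Slc24a5 it lay 13 bases before the start. Of the 6 members with a window in the table, 4 held TCATGTG on either strand, Mc1r being the fourth with a match 52 bases before its start, and the windows of Mitf and Oca2 held none. Over all 27025 genes with a window, 3.72% held it. The longest run of letters around the core that Tyr, Tyrp1 and Dct share is GTCATGTGCT, which occurred in 0.144% of all genes. Of 9 other genes of melanosome structure and transport with a window, 2 held the core (Slc24a5 and Trpm1) and 0 held the longer run. These matches describe letters in a window and were not tested as binding sites. Mlana, Slc45a2 and Sox10 had no window, so their promoters were not searched.

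In tail skin the means of the members lay between 5.23 (Sox10) and 8.35 (Tyrp1) on the deposited log2 scale, where the medians of the arrays ran from 4.67 to 4.89. No detection limit was set, and the lowest mice for Tyr, Slc45a2, Oca2 and Sox10 fell below those medians. The brightness of a probe set depends on its own probes, so the members are not ranked by level. Among the enzymes, Tyr ran from 3.93 to 6.88 with a median of 5.64, which is a 7.72-fold range between the lowest and highest mouse. Tyrp1 ran from 6.53 to 9.42 with a median of 8.35, and Dct from 6.06 to 9.17 with a median of 8.26. Of the melanosome proteins, Mlana ran from 5.04 to 7.19 with a median of 6.27. Slc45a2 ran from 4.35 to 5.97 and Oca2 from 4.15 to 6.29, with medians of 5.24 and 5.39. The receptor gene Mc1r ran from 4.86 to 6.63 with a median of 5.66. The transcription factors spread least, with a 2.50-fold range for Mitf (6.64 to 7.96, median 7.36) and a 2.31-fold range for Sox10 (4.55 to 5.75, median 5.26). In whole skin, fewer melanocytes and less RNA per melanocyte cannot be told apart.

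The spread between mice set the pigment genes apart from the factors. The SD of Tyr over all mice was 0.53, larger than that of 97.3% of all genes, and those of Tyrp1 (0.43) and Dct (0.46) were larger than in 94.5% and 95.8% of genes. The median SD over all genes was 0.22. Mitf (SD 0.23) and Sox10 (SD 0.21) stood in the middle, above 52.5% and 43.9% of genes. Genotype, sex and plate together accounted for 1.38% (Slc45a2) to 5.63% (Mitf) of a member's variance, and for 4.85% of that of Tyr.

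Whether Tyr falls into separate sets of mice was a question because its allele segregates in the cross. Its values formed a continuous series: the widest gap within the middle 80% of mice was 0.065, and a mixture of 2 normal components was not preferred over a single component (Bayesian information criterion lower by 8.81 for the single component). The 2 components fitted to Tyr lay 1.70 component SD apart. Sets that close can form a continuous series, so this check cannot decide about small shifts between alleles. A mixture was preferred for 15.4% of all genes and, among the members, only for Dct. For Dct the lower component held 0.846% of the mice, which amounts to a single animal. That animal, a WT female on plate 1, was the lowest of all for Tyr (3.93), Tyrp1 (6.53), Dct (6.06), Oca2 (4.15) and Mc1r (4.86), and the second lowest for Mlana and Slc45a2. For Mitf it held rank 75 from the lowest and for Sox10 rank 25. These ranks are on log2 signal, while marker lists of other cells were ranked on their mean standardised residual after genotype, sex and plate. On that measure the animal held rank 128 for hair shaft and inner root sheath, 125 for mast cells, 60 for Schwann cells and 66 for basal keratinocytes, 36 for fibroblasts and 70 for macrophages. Its low pigment genes thus did not go with the lowest ranks in those lists.

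**Figure D1:**
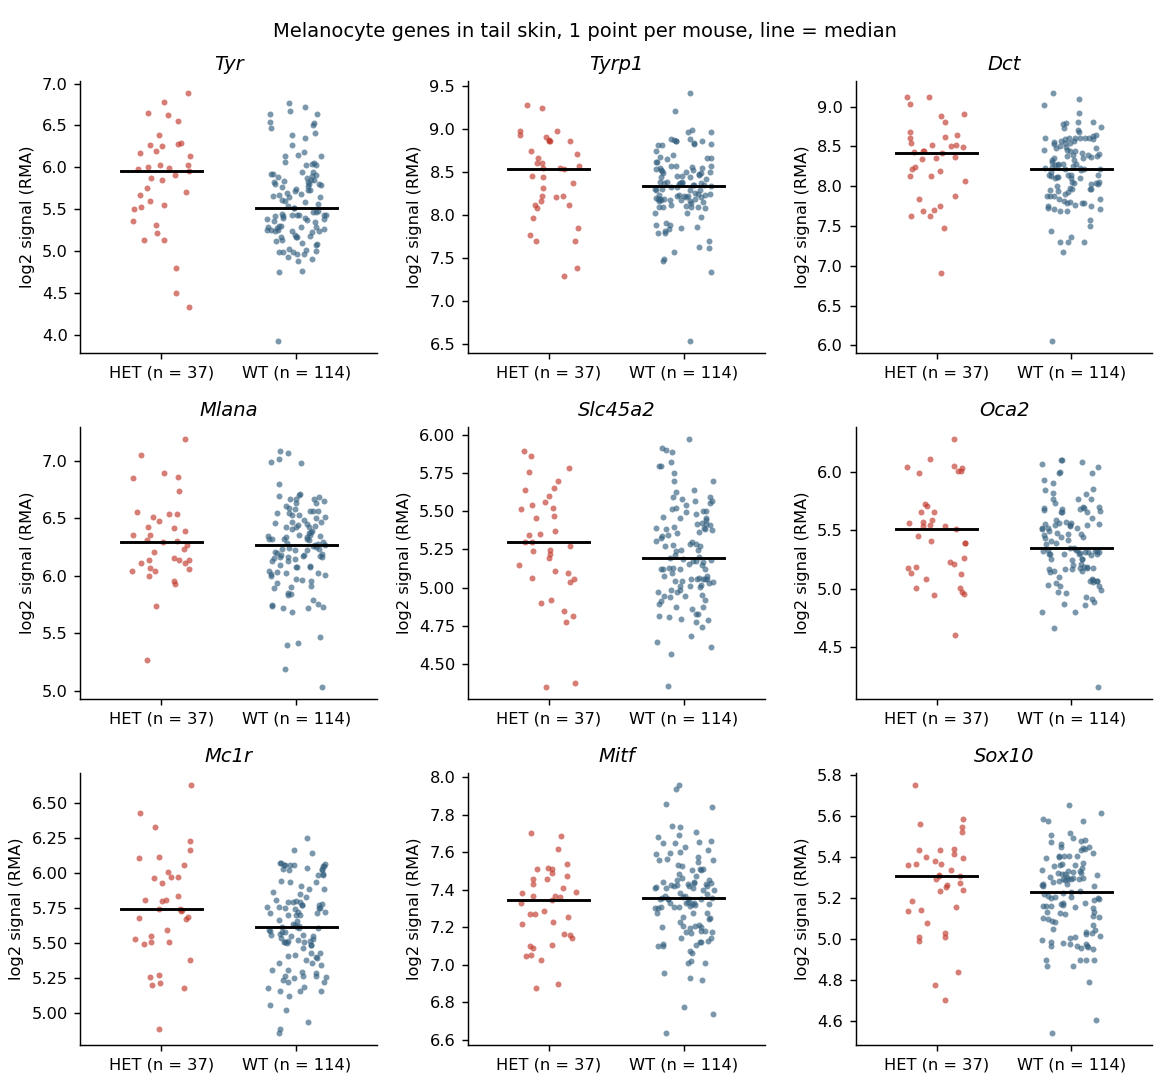
Log2 signal of the 9 melanocyte genes in each mouse, HET (red, n = 37) beside WT (blue, 62 males and 52 females), with a black line at the median of each group. The groups overlap in every panel, and a single WT mouse sits lowest for Tyr, Tyrp1, Dct, Oca2 and Mc1r.

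No member passed the test for Hras genotype. The fit across all genes (limma, Benjamini-Hochberg adjusted p under 0.05) called 0 of 9 members, beside 0.112% of all genes (21 of 18810). At an unadjusted p under 0.05 it counted 2 members (Tyr and Mc1r) and 6.57% of all genes. Tyr ran from 4.34 to 6.88 with a median of 5.96 in HET mice, and from 3.93 to 6.77 with a median of 5.51 in WT mice. The groups overlap over most of their range. The adjusted difference was 0.24 ± 0.10 (log2, SE), or 1.18-fold, with a 95% interval of 0.05 to 0.44 and an adjusted p of 0.634 by limma.

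Within plates, the difference of Tyr was 0.39 on plate 1, 0.01 on plate 2 and 0.30 on plate 3, so plate 2 showed almost none, although the genotype by plate term did not pass (limma adjusted p = 0.815). It was 0.10 in males and 0.39 in females. The genotype by sex term for Tyr was -0.27 ± 0.20 (log2, SE, males minus females), with an adjusted p of 0.998 by limma. Each of these interaction tests called 0 of the 18810 genes (background 0%), with 895 genes at an unadjusted p under 0.05 for genotype by sex and 1706 for genotype by plate.

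Mc1r ran from 4.89 to 6.63 with a median of 5.74 in HET mice, and from 4.86 to 6.25 with a median of 5.62 in WT mice. Its difference was 0.13 ± 0.06 (log2, SE; limma adjusted p = 0.740). Of the other members, 6 had positive differences, between 0.05 (Slc45a2) and 0.11 (Dct), and Mitf had -0.04, all with adjusted p of 0.839 or more. The median over the 9 members was 0.08, against a median of -5.9e-05 over all genes. The members vary together between mice, so 8 positive differences out of 9 are not 8 separate observations. Lists of other cells leaned the other way by genotype with no gene called: 1 of 19 hair genes (median -0.25), 0 of 9 mast cell genes (median -0.08) and 0 of 5 macrophage genes (median -0.11) had a difference above 0, beside 4 of 10 Schwann cell and 6 of 7 basal keratinocyte genes. Their part in the differences of the members was not tested. For Dct the values ran from 6.92 to 9.13 in HET mice and from 6.06 to 9.17 in WT mice, and for Tyrp1 from 7.29 to 9.28 in HET mice and from 6.53 to 9.42 in WT mice.

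Called genes of the genotype comparison lay mostly on the chromosome that carries Tyr: 19 of the 21 were on chromosome 7, and 14 of these lay between Tyr and Hras. None of the 20 measured genes nearest to Tyr was called, and 4 of them (20%) had an unadjusted p under 0.05. The share was 18.7% among the 670 genes between Tyr and Hras and 12.1% over all chromosome 7 genes. The closest of those 4 were Nox4, next to Tyr, with -0.09 ± 0.05, and Ctsc, a lysosomal protease gene at 2 places, with -0.15 ± 0.05 (log2, SE, HET minus WT; limma adjusted p = 0.738 and 0.407). The rest of the 4, Tmem135 (0.08 ± 0.03) and Me3 (0.10 ± 0.04), had positive differences (limma adjusted p = 0.640 and 0.679).

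**Figure D2:**
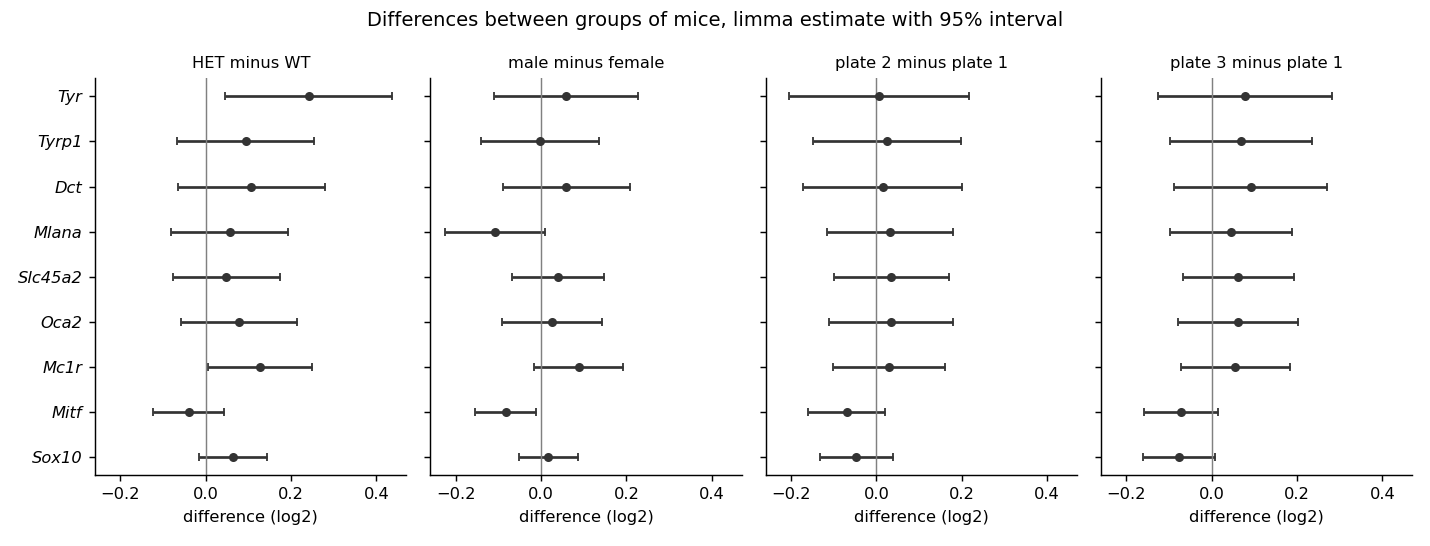
Difference of each melanocyte gene on the log2 scale (points, limma estimate; bars, 95% interval) for HET minus WT, male minus female, plate 2 minus plate 1 and plate 3 minus plate 1. The intervals of Tyr and Mc1r in the genotype panel and of Mitf in the sex panel leave out 0, and none of the 9 genes passed after adjustment in any panel.

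Between the sexes no member passed either, while 3 other genes of melanocyte signalling did. The comparison called 0 of 9 members and 3.62% of all genes (680). Mitf came nearest, with 6.64 to 7.96 and a median of 7.32 in males, against 6.88 to 7.84 and a median of 7.41 in females. Its difference was -0.08 ± 0.04 (log2, SE; limma adjusted p = 0.220), and with the mean of both Mitf probe sets it was -0.04 (adjusted p = 0.546, range over alternatives 0.161 to 0.903). The second probe set had a mean of 1.85, below the lower quartile of every array (3.02 to 3.20), so that average is a weak check. With the probe set used, the values of males and females overlap over nearly the whole range. All 19 measured hair shaft and inner root sheath genes also had negative differences, from -0.38 to -0.06 with 2 called, and their part in the difference of Mitf was not tested. The other members lay between -0.11 (Mlana) and 0.09 (Mc1r), with adjusted p of 0.365 or more.

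Among 36 other pigment genes, in lists of melanosome structure and transport, melanosome biogenesis, signals and receptors, and neural crest factors, 1 was called higher in males and 2 lower, beside 1.1% and 2.51% of all genes in those directions. All of these were signals or receptors, of which 9 were measured. Edn3, the ligand endothelin that supports melanocyte growth, averaged 5.21 ± 0.41 in males and 4.85 ± 0.34 in females (log2, SD, n = 81 and 70; difference 0.36 ± 0.06 SE; limma adjusted p = 1.87e-05). Kit, the receptor for stem cell factor on melanocytes and mast cells, averaged 6.44 ± 0.23 in males and 6.62 ± 0.20 in females (difference -0.19 ± 0.04; limma adjusted p = 6.52e-05). Atrn, a membrane protein that acts in agouti signalling, averaged 7.93 ± 0.11 in males and 7.99 ± 0.11 in females (difference -0.07 ± 0.02; limma adjusted p = 0.0131).

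Because Kit is also a mast cell gene, the mast cell markers are given beside it. Of 9 measured mast cell genes, 3 fell in males (Cpa3, Mcpt4 and Ms4a2, by 0.33, 0.30 and 0.31 on the log2 scale) and none rose, and their part in the difference of Kit was not tested. Other lists gave Drp2 and Ngfr (Schwann cell), Krt25 and Foxn1 (hair) and Lum (fibroblast) lower in males, and Krt14 (basal keratinocyte), Col1a1, Col1a2 and Col3a1 (fibroblast) higher. By genotype, 0 of the 36 other pigment genes was called, and their differences ran from -0.15 to 0.11.

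No member passed between plates. Means of Tyr were 5.61 ± 0.56 on plate 1, 5.62 ± 0.49 on plate 2 and 5.72 ± 0.54 on plate 3 (log2, SD, n = 49, 46 and 56). The F test over plates called 0 of 9 members and 0.0213% of all genes (4). The largest difference among the members was 0.09 ± 0.09 (log2, SE), for Dct in plate 3 minus plate 1, and the interval for Tyr in that contrast ran from -0.12 to 0.28. At an unadjusted p under 0.05 the F test counted 152 genes, or 0.808%, fewer than this threshold gives on average when nothing differs. The sources do not say whether the deposited values had been adjusted for plate, and this was not tested. Such an adjustment would remove plate differences before the test, so these results cannot show that the plates were alike.

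Between mice, the levels of the pigment genes were correlated. Correlations were computed over all 81 males and 70 females on residuals after genotype, sex and plate, with two-sided permutation tests of 100000 draws and adjustment over 36 pairs, of which 33 passed. The smallest p these draws can give is 1e-05. Among the 7 members that are not transcription factors, all 21 pairs passed, with Pearson r between 0.263 and 0.821 and a median of 0.642. Over all genes, the largest 1% of absolute r with these members began at 0.235 (Slc45a2) to 0.334 (Oca2). The closest pair was Tyrp1 with Dct (r = 0.821, Spearman rho = 0.765, permutation p = 1e-05, adjusted p = 2.12e-05), and it was close on each plate (r = 0.862, 0.784 and 0.809 on plates 1, 2 and 3). Leaving out the 2 mice with the most extreme Tyrp1 gave r = 0.781. Tyr went with Dct at r = 0.745 (rho = 0.718, permutation p = 1e-05, adjusted p = 2.12e-05; 0.773, 0.768 and 0.700 on plates 1, 2 and 3; 0.706 without the 2 farthest mice). This split of the members by role was written down after the correlations had been seen.

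Mc1r stood at the edge of this group. Its r ran from 0.263 with Mlana to 0.473 with Tyr, and on plate 3 the values with Mlana and Dct were 0.083 and 0.130. The surface receptor thus shared less of its variation with the enzymes than they shared with each other. A mouse's mean over the other pigment members accounted for 67.7% of the residual variance of Tyr, 67.2% of that of Tyrp1 and 69.6% of that of Dct, but 17.3% of that of Mc1r.

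The transcription factors had r of 0.354 or less with the pigment genes over all mice. Mitf correlated with the 7 others at r between 0.115 (Oca2) and 0.280 (Dct), and 4 of these pairs passed. Sox10 did so at r between 0.172 (Oca2) and 0.354 (Dct), with 7 passing. Over all genes, the largest 1% of absolute r began at 0.438 for Mitf and at 0.274 for Sox10. No pigment gene reached that value for Mitf, so its passing pairs do not set the members apart from other genes. For Sox10 only Tyrp1 (r = 0.301) and Dct reached it, so its other passing pairs do not do so either. The plates were uneven: Sox10 had r of 0.507, 0.354 and -0.058 with Mlana and 0.502, 0.370 and 0.229 with Dct on plates 1, 2 and 3, and Mitf had 0.167, 0.156 and 0.454 with Slc45a2. Mitf with Sox10 gave r = 0.309 (rho = 0.309, permutation p = 0.00016, adjusted p = 0.000262; 0.328, 0.358 and 0.270 on plates 1, 2 and 3). The mean of the 7 other genes accounted for 5.78% of the residual variance of Mitf and 9.4% of that of Sox10.

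**Figure D3:**
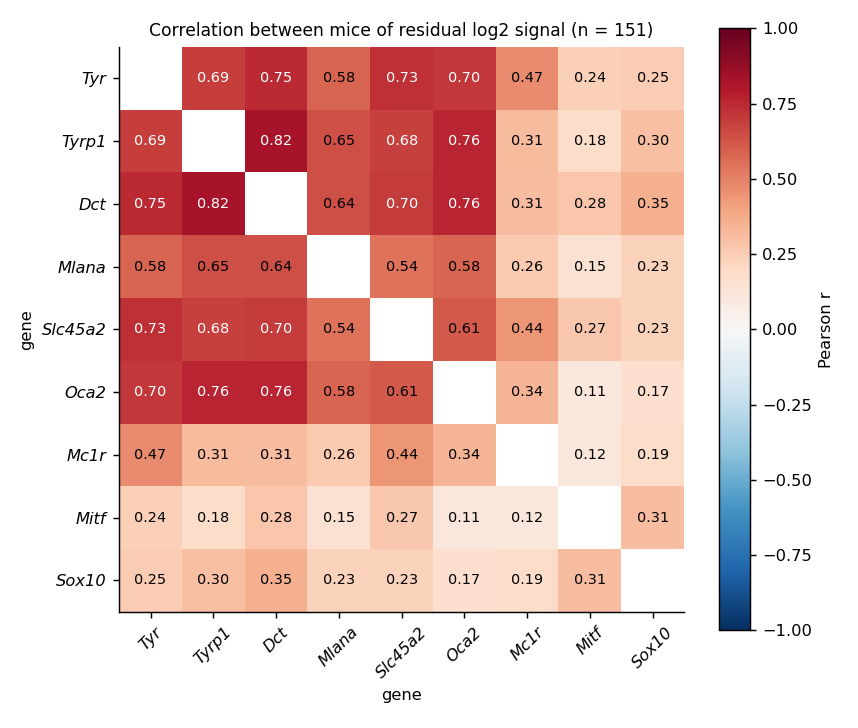
Pearson r between mice for each pair of melanocyte genes, on residual log2 signal after genotype, sex and plate (all mice; red positive, blue negative). The block of Tyr, Tyrp1, Dct, Mlana, Slc45a2 and Oca2 holds values from 0.543 to 0.821, while the rows of Mitf and Sox10 hold values of 0.354 or less.

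Mitf varied more closely with hair genes than with pigment genes, and had an absolute r of at least 0.3 with 869 genes in all. Against the mean standardised residual of 19 hair shaft and inner root sheath genes its r was 0.551 (rho = 0.558, permutation p = 1e-05, adjusted p = 0.00036 over 36 tests), with 0.715, 0.421 and 0.482 on plates 1, 2 and 3 and 0.546 with the 2 most extreme mice of the hair score left out. The other 8 members had r between -0.146 and -0.011 with that score, and none passed. The sign differed between plates for the enzymes, Mlana, Slc45a2 and Oca2, for example -0.031, -0.362 and 0.139 for Tyr and -0.180, -0.292 and 0.280 for Slc45a2 on plates 1, 2 and 3. Mitf is also expressed in mast cells, and its r with 9 mast cell genes was -0.040 (permutation p = 0.630, adjusted p = 0.809). Hair markers are abundant in skin with growing follicles, and growth stage was not given for these mice. The part of follicles or of mast cells in the variation of Mitf was not tested.

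Sox10 went with 10 Schwann cell genes at r = 0.301 (rho = 0.277, permutation p = 8e-05, adjusted p = 0.00144; 0.332, 0.429 and 0.154 on plates 1, 2 and 3; 0.289 without the 2 farthest mice). Mitf did so at r = 0.246 (rho = 0.325, permutation p = 0.00215, adjusted p = 0.0155; 0.158, 0.248 and 0.338 on the plates; 0.245 without the 2 farthest mice). The enzymes did not pass with that list, at r of 0.013 for Tyr, 0.051 for Tyrp1 and -0.011 for Dct. Oca2 gave the remaining pair of results that passed, -0.297 with mast cell genes (rho = -0.336, permutation p = 0.00022, adjusted p = 0.00264; -0.109, -0.252 and -0.540 on plates 1, 2 and 3; -0.306 without the 2 farthest mice) and 0.285 with basal keratinocyte genes (rho = 0.281, permutation p = 0.0005, adjusted p = 0.0045; 0.274, 0.528 and 0.0907 on the plates; 0.281 without the 2 farthest mice). In all, 5 of the 36 tests passed, judged by Pearson r. Tyr with mast cell genes passed by rank only (rho = -0.221, permutation p = 0.00631, adjusted p = 0.0379), with r = -0.198 (permutation p = 0.0146, adjusted p = 0.0879). On plate 3, r with mast cell genes was -0.425 for Tyr, -0.404 for Tyrp1, -0.391 for Dct and -0.345 for Slc45a2. On plate 1 the values were -0.094, 0.117, -0.008 and 0.127, so a negative r on plate 3 was not particular to Oca2.

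**Figure D4:**
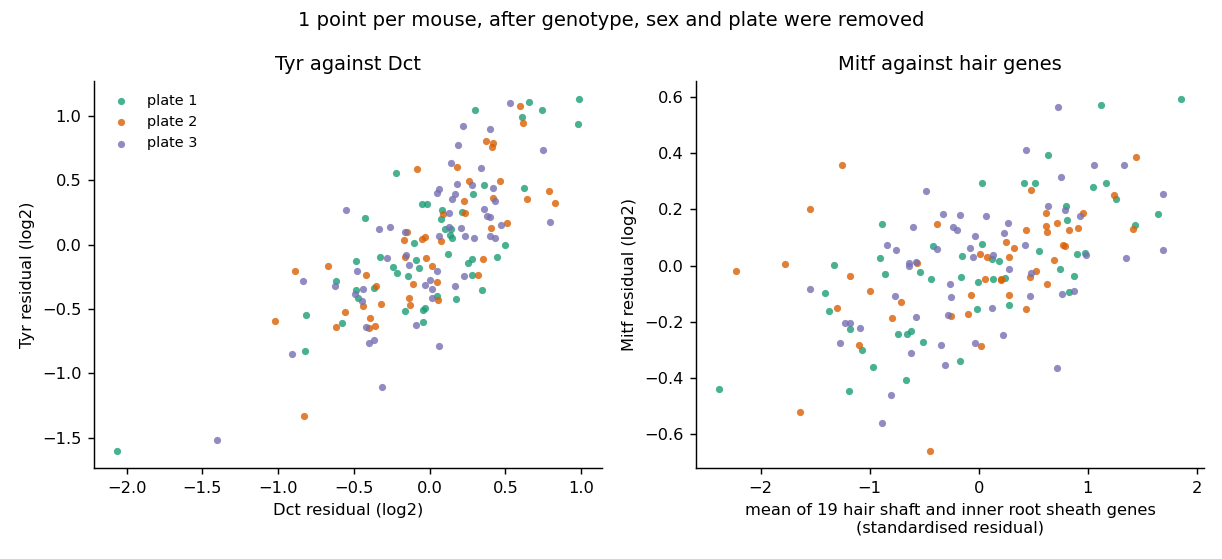
Residual log2 signal of each mouse after genotype, sex and plate, coloured by plate: Tyr against Dct (left, r = 0.745) and Mitf against the mean of 19 hair shaft and inner root sheath genes (right, r = 0.551). All plates show both relations, and a single mouse lies lowest in the left panel on both axes.

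The genes most like Tyr over all mice were pigment genes on other chromosomes, apart from Oca2. Slc24a5 led at r = 0.844 (0.851, 0.870 and 0.816 on plates 1, 2 and 3), followed by Pmel (0.755), the protein that forms the fibrils on which melanin is laid down, and by Dct (0.745), Slc45a2 (0.731) and Oca2 (0.704). Pmel also led for Tyrp1 (0.826) and was among the closest 3 genes for Dct, Slc45a2 and Oca2. These values come from a search over all genes and are descriptions. The nearest genes to Mitf were Cyria (0.603), Slc7a8 (0.594) and Ly6g6d (0.586), and those to Sox10 were Glrb (0.435), Pip4k2b (0.425) and Tfeb (0.413), none of them a member. Those to Mlana were Tyrp1, Dct and Slc24a5 (0.591), and those to Mc1r were Tyr, Slc24a5 (0.461) and Slc45a2.

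The wider pigment pathway was set against the mean of the 3 enzymes. Of 12 genes of melanosome structure and transport, 6 had r of at least 0.3, beside 0.346% of all genes: Pmel (0.867), Slc24a5 (0.811), the channel Trpm1 (0.748), the melanosome receptor Gpr143 (0.473), and Mlph (0.393) and Rab27a (0.336), which tether melanosomes to the motor that carries them. The other members of that list ran from -0.031 to 0.266, and Myo5a, the motor, had 0.133. None of the 11 genes of melanosome biogenesis, which serve lysosome-related organelles in many cells, reached 0.3 (-0.130 to 0.237), and none of the 9 signals and receptors did (-0.158 to 0.199 with Kit at the top). Of 4 neural crest factors, Pax3, a regulator of Mitf, had 0.469 on all mice and 0.470, 0.474 and 0.470 on plates 1, 2 and 3. Over all mice, no marker of mast cells, basal keratinocytes, fibroblasts, macrophages or hair reached 0.3 in either direction. Of 10 Schwann cell genes only S100b did (0.321), a gene that melanocytes also express. Single plates differed: the 6 fibroblast genes ran from -0.449 (Pdgfra) to -0.375 (Col3a1) on plate 3, but from 0.050 (Col1a2) to 0.190 (Col3a1) on plate 1. The macrophage gene Cd163 had -0.466 on plate 3 and -0.065 on plate 1, and the mast cell gene Mrgprb1 had -0.442 and -0.093. The cause was not tested.

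Tyr also varied with many genes of its own chromosome. Of 129 genes with an absolute r of at least 0.3 to Tyr, 63 (48.8%) lay on chromosome 7, which holds 8.75% of the measured genes. Of these, 33 correlated positively and 30 negatively. The share of genes past that value was 14.3% within 49 places of Tyr in gene order, 8.0% from 50 to 99, 5.0% from 100 to 199, 5.5% from 200 to 399, 1.33% from 400 to 699 and 0.403% beyond. On other chromosomes it was 0.385%. For r with Slc45a2, a gene of chromosome 15, the share around Tyr also fell with distance. It was 10.2% within 49 places, 2.0% from 50 to 99 and 0% beyond 699, so the decline was not particular to Tyr. The chromosome 7 genes with the strongest r to Tyr were Oca2 (165 places away) and Trpm1 (150 places away, r = 0.696), both pigment genes, and then Rpl27a (0.572), Ndufc2 (0.569), Myo7a (0.516), Bcat2 (0.512) and Fah (0.509), and among negative values Neu3 (-0.492). Linked genes are inherited together in a backcross, so genes of a chromosome are not independent of each other, and these counts carry no test. Of the 63 genes, 62 had a HET minus WT difference with the sign of their r to Tyr, beside 60.7% of all chromosome 7 genes. Of the 66 genes on other chromosomes with an absolute r of at least 0.3, which include pigment genes, 55 did. The share over all genes of other chromosomes was not computed, so that count has no background. All of these come from the same mice as the difference of Tyr, so they are not separate observations.

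**Figure D5:**
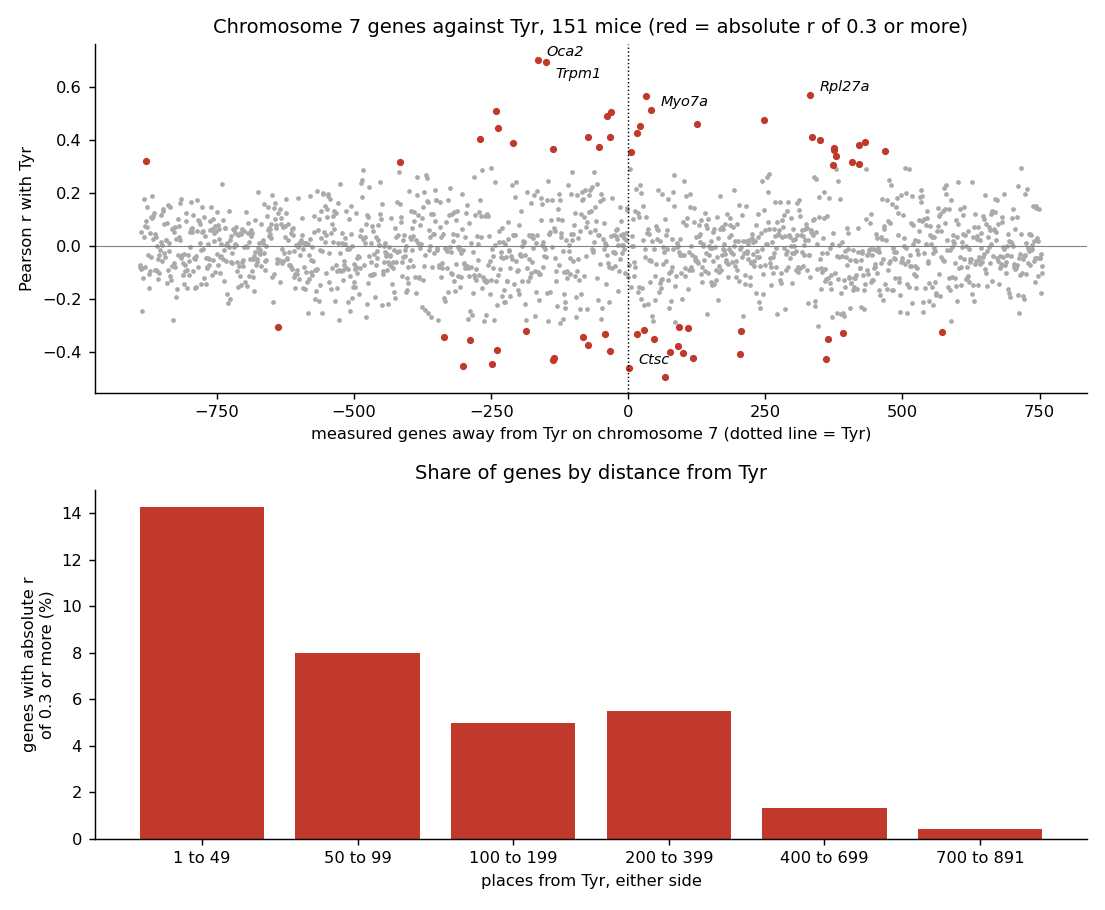
Top: Pearson r with Tyr (all mice, residual log2 signal) of each measured gene of chromosome 7, by its number of places from Tyr in gene order, red where the absolute r is 0.3 or more. Bottom: share of genes at that value by distance, which is 14.3% within 49 places and 0.403% beyond 699.

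Chromosome 7 genes were also counted by plate. Among the 50 genes with the largest absolute r to Tyr, 20, 21 and 25 lay on chromosome 7 on plates 1, 2 and 3, and 32 did so over all mice. When the 50 chromosome 7 genes with the largest absolute r were taken on 1 plate, 43 to 46 of the 50 had the same sign on another plate, against 56.6% to 58% of all 1646 genes of the chromosome. Next to Tyr, the neighbours with the largest absolute r were Ctsc (-0.457, 2 places away) and Tmem135 (0.357, 4 places away). The larger of these exceeded the largest neighbour r of 84.1% of all genes.

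The same counts were made after regression on the mean of the other pigment members, which removes what these genes share. For Tyr, 38 of 50 genes with an absolute r of at least 0.3 then lay on chromosome 7, against 63 of 129 before, so that both counts fell and the share on the chromosome was higher. For Tyrp1 the count on chromosome 4, which holds 5.91% of genes, was 20 of 52, against 2 of 73 before. It rested on plate 3: among the 50 genes with the largest absolute r, 2, 6 and 21 lay on chromosome 4 on plates 1, 2 and 3. For Dct it was 25 of 82 on chromosome 14 (3.49% of genes), against 13 of 57 before, with 10, 9 and 14 of the top 50 on plates 1, 2 and 3. The plate counts for Tyr were 13, 14 and 23. Mc1r had 7 of 16 on chromosome 8 (4.74% of genes) and Mlana 4 of 16 on chromosome 19 (3.39%), while Slc45a2 had 1 of 20 on chromosome 15 and Sox10 6 of 154. For Mitf the count was 52 of 1081 on chromosome 6, a share below the 5.57% of genes that lie there, and for Oca2 76 of 635.

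Genes of chromosome 7, 8.75% of those measured, also stood among those of other members. Slc45a2, on chromosome 15, had 27 of its 57 genes at that value on chromosome 7 and none on its own. Mc1r had 11 of 35 there, Tyrp1 14 of 73, Mlana 13 of 80 and Dct 9 of 57. Oca2, which lies on chromosome 7 itself, had 40 of 435, a share of 9.20%. The factors had 70 of 869 (Mitf) and 7 of 90 (Sox10). The pigment members correlate with Tyr, and whether their chromosome 7 genes are separate from those of Tyr was not tested. Near the other members, Pdzrn3 and Eif4e3 on chromosome 6 stood out for Mitf (0.570 and 0.435), the larger exceeding 94.3% of all genes. The largest neighbour r was 0.301 for Dct (Dnajc3) and 0.268 or less in absolute size for Tyrp1 (Gm11487 and Tle1), Mlana (Ric1 and Prkg1), Slc45a2 (Rad1 and Rxfp3), Oca2 (Luzp2 and Ndn), Sox10 (Ankrd54 and Tmem184b) and Mc1r (Nup133 and Rhou), all below the median of 0.295 over all genes. For Dct the next was Cldn10 (-0.248).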

How the data were processed

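Tail skin RNA was hybridised to Affymetrix arrays, 1 per mouse, per the labels' protocols. The deposited values are log2 signals that the authors summarised with RMA, per the submitters' processing notes. The version of RMA, the build behind the array and any later plate adjustment are not given. The table had 35556 rows, of which 171 were empty. Gene symbols came from the platform annotation (1 symbol for 21201 probe sets, several for 1881, none for 12303), updated through RefSeq for GRCm38.p6 (21168 matched, 33 did not). The highest correlation between any 2 arrays was 0.986, and none was counted as a repeat. Precision is limited by how many mice were measured. Whether probes match spretus sequence was not tested. The transcript of Hras is not reported here.

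Genotype, sex and plate were fitted in 1 model with limma 3.58.1 (R 4.3.3, with the package data.table at version 1.17.8; lmFit, eBayes with trend), with Benjamini-Hochberg adjustment over 18810 genes, and the fit was tested on simulated data. Differences are on the log2 scale. Correlations and mixtures used scipy 1.17.1, numpy 2.4.6 and pandas 2.3.3 under Python 3.11.15, and figures matplotlib 3.10.9. Scores of lists average the standardised residuals of their genes, without the members. Promoters of up to several starts per gene were searched on both strands.

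The members and lists were chosen with earlier results of these data known. The genes named are the 9 members, up to 3 called genes of each list per direction with the smallest p, the 5 genes closest to Tyr and 3 closest to each other member, and the 2 of each member's 20 chromosome neighbours with the largest absolute r. Genes of the enzyme-mean comparison, the strongest chromosome 7 genes, Nox4, Me3 and Myo5a were named after their values were seen. The counts by chromosome and of shared variance were likewise chosen after seeing the data. Alternatives covered arrays, scaling, probe sets, filter, prior, weights, terms, plates and sexes.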

Additional observations from a re-analysis of the deposited data

Results flagged for a closer look

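The groups of 9 or 10 mice small enough to be searched for a far sample were the HET mice of plates 1 and 2, which gave 18 group and gene combinations. In 1 of them, Slc45a2 in HET mice of plate 2, the lowest mouse had a log2 signal of 4.38 and the next 5.03, a gap of 0.517 of the group's range. Chance gives about 1 such case in 20 groups by the way the limit is set, and the 18 combinations are correlated genes in the same mice.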

How the results depend on the processing

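No paired analysis was possible because the replicate numbers only name mice in accession order. None of the 9 members was called in any setting of the genotype, sex or plate comparison; the lowest adjusted p by limma over the alternatives was 0.446 by genotype, 0.161 by sex and 1.0 by plate. The share of all genes called by genotype was 0% on plate 1 alone, 0% on plate 3 alone, 0% in males alone and 0.0532% in females alone, against 0.112% in all mice. With limma at an unadjusted p under 0.05 these shares were 4.72%, 9.62%, 5.11% and 6.16%. By sex, 0.276%, 0.383% and 0.611% were called on plates 1, 2 and 3 alone, against 3.62%; fewer mice enter each of these fits. By genotype, 136 of 144 refitted member differences kept their direction. Those that turned, all with no call, were on plate 2 Tyrp1 (-0.126), Dct (-0.0408), Mlana (-0.0871), Mitf (0.0307), Slc45a2 (-0.00783) and Oca2 (-0.173), on plate 1 Mitf (0.00556), and in males Slc45a2 (-0.0328). By sex, all but 10 kept it; those that turned were on plate 2 Tyr (-0.00687), Dct (-0.0930), Slc45a2 (-0.00485), Oca2 (-0.0849) and Sox10 (-0.0941), on plate 1 Sox10 (-0.0111), on plate 3 Tyrp1 (0.0766) and Mc1r (-0.0291), and for Tyrp1 after centring each array on its median (0.0101) and in WT mice alone (0.0362). The cause was not tested. Of the 36 pairs of members, 20 passed on plate 3 alone, against 33, and 32 without the mouse that was lowest for most members, a setting chosen after seeing the data. Of the tests against other cell types, 1 passed on plate 1 alone, against 5. Cells were not counted, allele and coat colour were not analysed, and skin was measured whole.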
